A study of Homo sapiens with 6 samples.

Results

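Cytosolic nucleic acids are detected by a small set of proteins, and 10 of their genes were followed here by RNA-seq in cells with and without ARID1A. The genes were MB21D1 (also called CGAS), TMEM173 (also called STING1), TREX1, DDX58 (also called RIGI), IFIH1, MAVS, ADAR, TBK1, IKBKE and IRF3. They were chosen by name, and each matched 1 row among the 57820 genes of the tables. The libraries came from untreated AID-DIvA cells, an osteosarcoma line that carries the restriction enzyme AsiSI in a form that an added drug sends to the nucleus, so that all 6 libraries hold the uninduced enzyme. Of these, 3 were WT and 3 were ARID1A-KO, numbered 3 to 5 in both genotypes. ARID1A encodes a DNA-binding subunit of the SWI/SNF chromatin remodelling complex. The study describes the replicates as independent experiments, and the sources used here do not say whether the knockout libraries came from 1 clone or from several.

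The pathway has 2 arms. In the DNA arm, the enzyme cGAS (MB21D1) binds double-stranded DNA in the cytosol and makes the messenger cGAMP, which activates the adaptor STING (TMEM173) at the endoplasmic reticulum, while the exonuclease TREX1 degrades such DNA. In the RNA arm, the helicases RIG-I (DDX58) and MDA5 (IFIH1) bind double-stranded RNA and signal through the mitochondrial adaptor MAVS, while ADAR edits adenosines in double-stranded RNA and so keeps it from being sensed. Both arms meet at the kinases TBK1 and IKBKE, which phosphorylate the transcription factor IRF3, and IRF3 then switches on interferon-β and a first wave of antiviral genes.

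The 6 libraries held 54512105 to 84088708 reverse-stranded gene counts. ARID1A fell from 173 ± 6.67 CPM (SD, n = 3) in WT to 25.9 ± 1.38 CPM (n = 3) in ARID1A-KO, as the labels of the genotypes imply. CPM is the count of a gene per 1000000 counts of the library, after TMM scaling of the library sizes. Of the 19599 genes tested, 36.2% passed an adjusted p of 0.05 in edgeR's quasi-likelihood test, 17.8% higher and 18.4% lower in ARID1A-KO, and the CPM of the genotypes did not overlap for 49.5%. The first principal component separated the genotypes and took 75.1% of the variance, and on the second (11.1%) ARID1A-KO replicate 5 lay at 32.1 and WT replicate 4 at -28.0, farther apart than the other 4 libraries. Of 8 osteoblast markers all had reads, but BGLAP, IBSP and SP7 had at most 12 in a library and COL1A2 at most 20. The summed markers lay at 1181 to 1268 CPM in WT and 713 to 789 CPM in ARID1A-KO, mostly from SPARC (757 to 410 CPM) and COL1A1 (447 to 322 CPM). Of 5 tested, 3 were lower (SPARC, COL1A1 and ALPL). RUNX2 (log2 fold change -0.03) and COL1A2 (-0.46) were not called. The 7 markers of blood cells, which are rich in sensing genes, summed to 4.07 to 4.54 CPM in WT and 4.39 to 5.44 CPM in ARID1A-KO, with none at 0 in every library. Of the 4 tested, ITGAM was higher in ARID1A-KO (0.503 to 3.91 CPM) and PTPRC (1.95 to 0.445) and CSF1R (1.61 to 0.160) were lower. The 4 epithelial markers summed to 6.07 to 8.38 CPM in WT and 7.46 to 7.90 CPM in ARID1A-KO, where EPCAM was higher (5.15 to 6.996 CPM) and CDH1 (1.25 to 0.540) and KRT14 (0.934 to 0.0886) were lower. CDH5, the 1 endothelial marker matched of 2, lay at 0.172 to 0.409 and 0.364 to 0.514 CPM. The part of other cells in the results below was not tested.

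All 10 sensing genes passed the filter on low counts. MB21D1 and IRF3 rose in ARID1A-KO, TMEM173 and TREX1 fell, and the other 6 did not pass the threshold. The 4 calls among 10 genes stood beside 36.2% of all genes tested, and the median log2 fold change was -0.01 for the 10 genes and 0.01 for all genes. The CPM of the genotypes did not overlap for 5 of the 10 (MB21D1, IRF3 and TBK1 higher, TREX1 and MAVS lower), beside 49.5% of all genes.

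**Figure D1:**
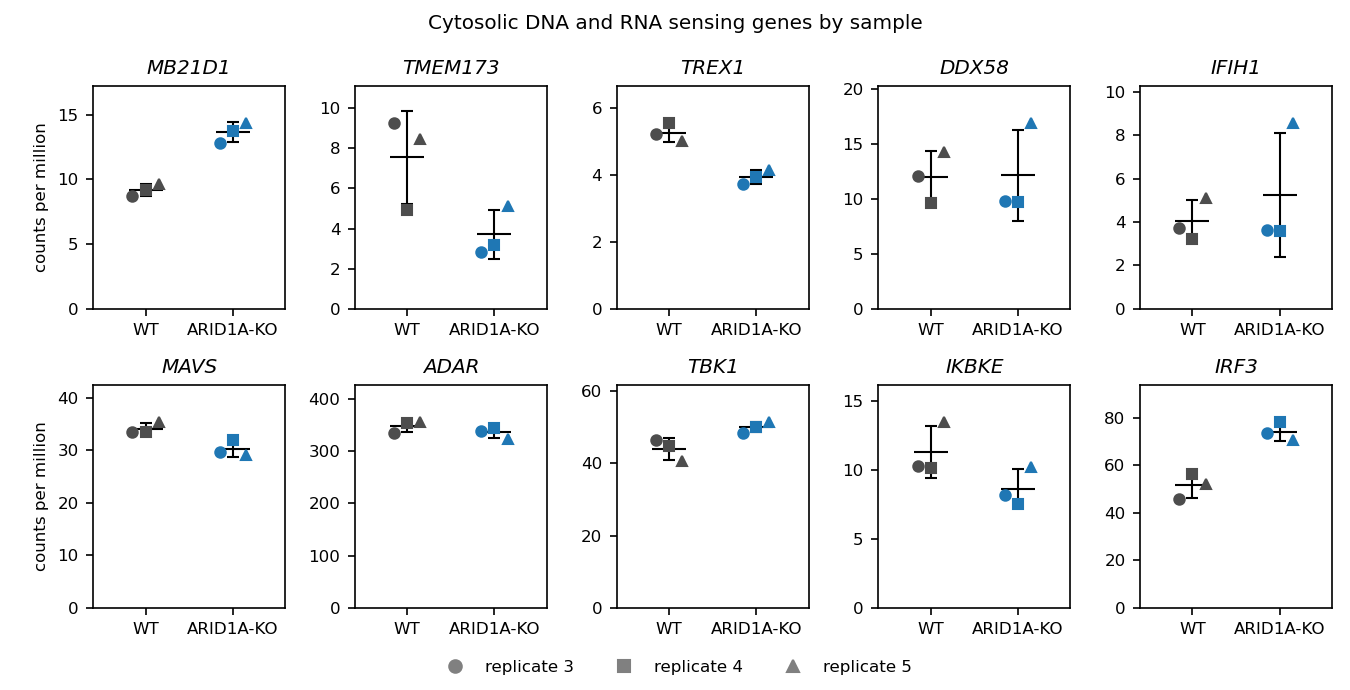
CPM (y axes, each from 0) of the 10 sensing genes in 3 WT (grey) and 3 ARID1A-KO (blue) samples, with the marker shape giving the replicate and the bars the mean ± SD. MB21D1 and IRF3 lie higher and TREX1 lower in every ARID1A-KO sample, whereas the TMEM173 values of the genotypes overlap.

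Levels between genes were compared as TPM, transcripts per 1000000 transcripts, which take transcript length into account and which the authors scaled to the autosomal genes. In WT, ADAR was the most abundant at 183 ± 3.29 TPM (SD, n = 3), followed by IRF3 at 59.6 ± 5.45, TBK1 at 40.6 ± 3.34, MAVS at 35.4 ± 0.718 and IKBKE at 13.9 ± 2.13 TPM. The ranges of these 5 neighbours did not overlap. TREX1 (10.5 ± 0.594 TPM), DDX58 (10.1 ± 1.90), MB21D1 (9.72 ± 0.332) and TMEM173 (8.63 ± 2.70) came next and each overlapped the following one, so that their order is not resolved by 3 samples. IFIH1 was lowest at 3.90 ± 0.912 TPM, below the range of TMEM173. The median of all genes tested was 11.6 TPM in WT, and the last 5 of the order lay below it. In ARID1A-KO the first 4 places were unchanged, with ADAR at 179 ± 2.84, IRF3 at 86.8 ± 3.37, TBK1 at 46.7 ± 2.46 and MAVS at 31.7 ± 1.39 TPM. MB21D1 stood 5th at 14.6 ± 1.16 TPM, after 8th in WT. It was clear of MAVS and IKBKE next to it, but its range of 13.5 to 15.8 TPM overlapped that of DDX58 (8.17 to 14.8). TMEM173 was last at 4.30 ± 1.53 TPM, after 9th, and IKBKE, DDX58, TREX1, IFIH1 and TMEM173 overlapped in sequence.

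**Figure D2:**
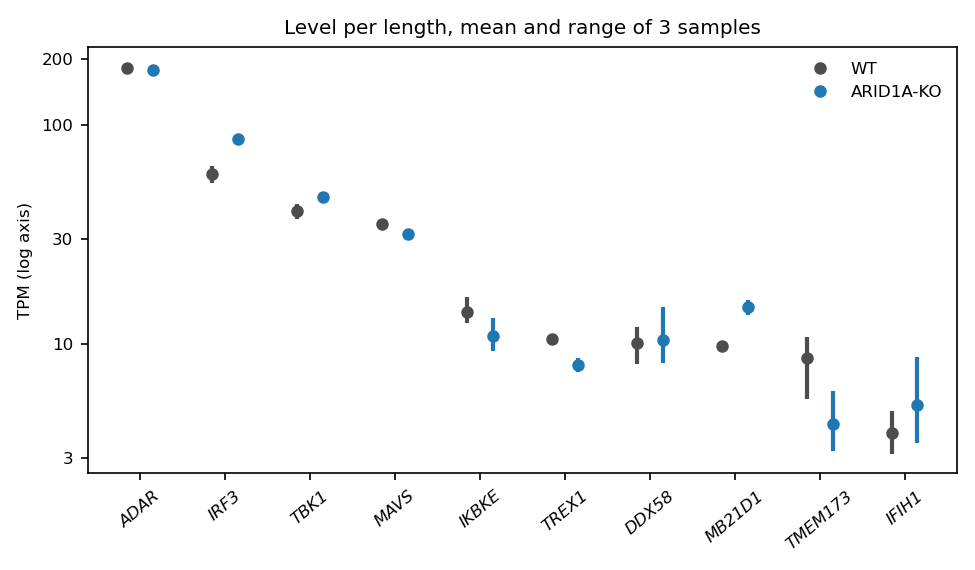
TPM (log axis) of the 10 sensing genes in WT (grey) and ARID1A-KO (blue), as the mean (point) and range (line) of 3 samples, ordered by the WT mean. ADAR, IRF3, TBK1 and MAVS keep the first 4 places in both genotypes, and MB21D1 moves above IKBKE in ARID1A-KO.

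In the DNA arm, sensor and adaptor moved in opposite directions. MB21D1 (ENSG00000164430.11, GRCh37 chromosome 6 from 74123238 to 74161999, minus strand) had 8.74, 9.19 and 9.66 CPM in WT replicates 3, 4 and 5 and 12.9, 13.8 and 14.4 CPM in ARID1A-KO replicates 3, 4 and 5. All ARID1A-KO samples were higher than all WT samples. The rise was 1.49-fold (log2 fold change 0.57, SE 0.09), with an adjusted p of 0.00108 in edgeR's quasi-likelihood test. It went against its chromosomal surroundings: the median log2 fold change of the other 34 genes tested within 5 Mb was -0.38, and with that median taken off, MB21D1 stood at 0.95. The 3′ end of MB21D1 overlaps DDX43 on the opposite strand, which the counting kept apart and which also rose (log2 fold change 0.49, SE 0.09, adjusted p = 0.00250, edgeR's quasi-likelihood test).

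TMEM173 (ENSG00000184584.8, chromosome 5 from 138855119 to 138862520, minus strand) had 9.26, 4.92 and 8.47 CPM in WT and 2.85, 3.17 and 5.10 CPM in ARID1A-KO. ARID1A-KO replicate 5 was slightly above WT replicate 4, and in the other 8 pairs of a WT and an ARID1A-KO sample the WT sample was higher. The fall was the largest among the 10 genes, with a log2 fold change of -1.02 (SE 0.27), or 2.02-fold, and an adjusted p of 0.0173 in edgeR's quasi-likelihood test. It was also the least even called member, with a coefficient of variation of 30.7% in WT and 32.9% in ARID1A-KO. The call was lost when WT replicate 3 (adjusted p = 0.0683), WT replicate 5 (0.0632), ARID1A-KO replicate 3 (0.0607) or ARID1A-KO replicate 4 (0.0617) was left out of edgeR's fit, and the fold change then lay at -0.85 to -0.93. Without ARID1A-KO replicate 5 it was -1.33. The exact permutation test of the TPM gave p = 0.2, where 3 samples against 3 allow no p below 0.1.

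The genes closest to TMEM173 in their pattern over the 6 samples were TNS3, which encodes a focal adhesion protein, BCAM, a cell surface receptor for laminin, and JUP, the junction protein plakoglobin. They were ranked among 13081 genes by the Euclidean distance of their row-centred log2 CPM, at 0.191, 0.207 and 0.222. TNS3 had 118, 61.2 and 99.3 CPM in WT and 32.7, 35.9 and 66.4 CPM in ARID1A-KO. As with TMEM173, WT replicate 4 was the lowest WT sample, ARID1A-KO replicate 5 was the highest ARID1A-KO sample, and that 1 pair overlapped. A shared order follows from the ranking by pattern and is no separate result. In BCAM (43.6 and 41.3 CPM) and JUP (10.6 and 9.90 CPM) WT replicate 4 stayed above ARID1A-KO replicate 5.

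TREX1 (ENSG00000213689.5, chromosome 3 from 48506445 to 48509044, plus strand) had 5.22, 5.54 and 5.00 CPM in WT and 3.72, 3.93 and 4.14 CPM in ARID1A-KO. The groups did not overlap. The fall was 1.34-fold (log2 fold change -0.42, SE 0.12, adjusted p = 0.0204, edgeR's quasi-likelihood test). The call was lost in edgeR when any 1 of 3 libraries was left out, at an adjusted p of 0.0534 for WT replicate 4, of 0.0808 for ARID1A-KO replicate 3 and of 0.0728 for ARID1A-KO replicate 4. TREX1 overlaps ATRIP on the same strand (48488114 to 48507115), and reads in the shared stretch could not be told apart. ATRIP, a partner of the checkpoint kinase ATR, had 20.7 ± 2.18 CPM in WT and 21.8 ± 0.954 CPM in ARID1A-KO (SD, n = 3).

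The RNA sensors varied more between samples of 1 genotype than between genotypes. DDX58 (ENSG00000107201.5, chromosome 9 from 32455300 to 32526322, minus strand) had 12.1, 9.65 and 14.3 CPM in WT and 9.78, 9.73 and 16.9 CPM in ARID1A-KO. IFIH1 (ENSG00000115267.5, chromosome 2 from 163123589 to 163175213, minus strand) had 3.72, 3.23 and 5.12 CPM in WT and 3.63, 3.58 and 8.56 CPM in ARID1A-KO. In both genes the genotypes overlapped and ARID1A-KO replicate 5 was the highest of the 6 samples. The log2 fold changes were 0.02 (SE 0.22, adjusted p = 0.948) for DDX58 and 0.40 (SE 0.33, adjusted p = 0.382) for IFIH1 in edgeR's quasi-likelihood test. Without ARID1A-KO replicate 5 they turned to -0.30 and -0.15. The 42 neighbours of IFIH1 within 5 Mb had a median of -0.32, and with that taken off IFIH1 stood at 0.72.

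The stretches before the starts of these sensor genes are shown because IFIH1 alone among the members with a sequence held the core of the interferon-stimulated response element, the site that interferon-activated factors and IRF3 recognise. The core was searched as GAAANNGAAA on both strands in 250 bases before to 50 after each RefSeq start (GRCh38.p14). Windows were matched for TREX1, DDX58, IFIH1, MAVS, ADAR, TBK1 and IKBKE, 7 of the 10 genes, and not for MB21D1, TMEM173 and IRF3. The 250 bases before each start follow, 5′ to 3′ on the gene's strand, with the matches in capitals.
IFIH1, chr2:162318685-162318934, minus strand: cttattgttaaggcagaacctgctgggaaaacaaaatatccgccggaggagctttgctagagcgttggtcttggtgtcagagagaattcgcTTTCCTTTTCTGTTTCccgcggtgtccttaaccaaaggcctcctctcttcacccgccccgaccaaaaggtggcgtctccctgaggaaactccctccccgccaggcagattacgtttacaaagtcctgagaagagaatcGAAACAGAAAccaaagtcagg
DDX58, chr9:32526197-32526446, minus strand: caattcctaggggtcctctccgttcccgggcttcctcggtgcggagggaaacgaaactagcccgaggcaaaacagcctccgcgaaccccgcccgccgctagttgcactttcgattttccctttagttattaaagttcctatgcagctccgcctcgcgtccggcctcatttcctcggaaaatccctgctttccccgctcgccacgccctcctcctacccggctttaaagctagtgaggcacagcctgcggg
IFIH1 held 3 matches. The first capital stretch holds 2 that overlap each other, on the opposite strand, at positions -159 to -150 and -153 to -144 from the start, and the last lies on the gene's strand at -21 to -12. Of 35116 RefSeq windows of this length, 3.57% held at least 1 match. The DDX58 window had none, which says only that these letters are not in it. The GC box GGGCGG, a site of general promoter factors, was found in 45.0% of all windows and among the members in those of DDX58 and IFIH1 (1 match each), MAVS (3 matches) and the third of the 3 ADAR windows (1 match). In the IFIH1 window the GC box lies outside the capitals. CpG dinucleotides, with a median of 14 a window over all, numbered 35 in TBK1, 34 in MAVS, 27 in DDX58, 12 in IFIH1, 5 in IKBKE and 3 in TREX1.

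The adaptor of the RNA arm and the editing enzyme changed little. MAVS (ENSG00000088888.13, chromosome 20 from 3827487 to 3849280, plus strand) had 33.5, 33.5 and 35.3 CPM in WT and 29.6, 31.9 and 29.1 CPM in ARID1A-KO. The groups did not overlap, but the log2 fold change of -0.18 (SE 0.07) had an adjusted p of 0.0687 in edgeR's quasi-likelihood test. With the median of its 74 neighbours within 5 Mb (0.08) taken off, the value was -0.25 and the adjusted p in edgeR 0.0186. ADAR (ENSG00000160710.11, chromosome 1 from 154554538 to 154600475, minus strand) had 335, 354 and 355 CPM in WT and 339, 344 and 323 CPM in ARID1A-KO. These values overlapped, and the log2 fold change was -0.05 (SE 0.06, adjusted p = 0.534, edgeR's quasi-likelihood test).

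**Figure D3:**
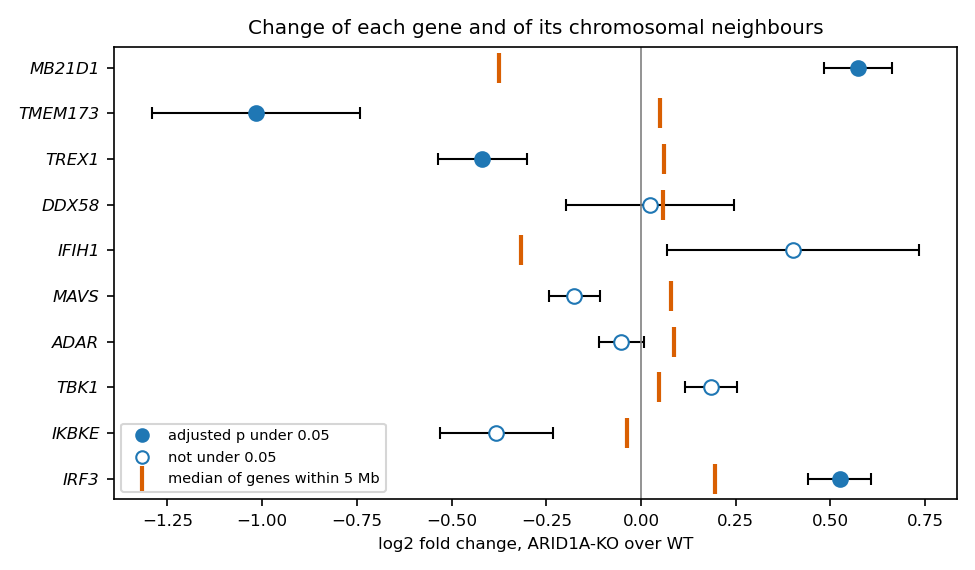
Log2 fold change of the 10 sensing genes in ARID1A-KO over WT (x axis, points with SE bars, n = 3 and 3) and the median log2 fold change of the other genes tested within 5 Mb (orange ticks), with filled points for an adjusted p under 0.05. MB21D1 rose by 0.57 where its neighbours had a median of -0.38, while IRF3 rose by 0.52 where theirs was 0.19.

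Of the 2 kinases, TBK1 (ENSG00000183735.5, chromosome 12 from 64845660 to 64895888, plus strand) had 46.4, 44.8 and 40.7 CPM in WT and 48.5, 50.1 and 51.3 CPM in ARID1A-KO. All ARID1A-KO samples were higher, with a log2 fold change of 0.19 (SE 0.07) that missed the threshold (adjusted p = 0.0616, edgeR's quasi-likelihood test). Its paralog IKBKE (ENSG00000143466.9, chromosome 1 from 206643791 to 206670223, plus strand) had 10.3, 10.1 and 13.4 CPM in WT and 8.15, 7.51 and 10.2 CPM in ARID1A-KO. ARID1A-KO replicate 5 lay between WT replicates 4 and 3, and the log2 fold change was -0.38 (SE 0.15, adjusted p = 0.0757, edgeR's quasi-likelihood test). IKBKE was called by DESeq2 (adjusted p = 0.0413) and, without ARID1A-KO replicate 5, by edgeR's quasi-likelihood test (log2 fold change -0.52, adjusted p = 0.0236).

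IRF3 (ENSG00000126456.11, chromosome 19 from 50162826 to 50169132, minus strand), the transcription factor at the end of both arms, had 46.0, 56.4 and 52.1 CPM in WT and 73.5, 78.0 and 70.7 CPM in ARID1A-KO. The groups did not overlap. The rise was 1.44-fold (log2 fold change 0.52, SE 0.08, adjusted p = 0.00111, edgeR's quasi-likelihood test). The median over its 303 neighbours within 5 Mb was 0.19 on the log2 scale, and with that taken off, IRF3 stood at 0.33 (adjusted p = 0.0145, edgeR's quasi-likelihood test). BCL2L12, a gene of the BCL2 family whose start overlaps that of IRF3 on the opposite strand, rose as well, from 48.6 ± 3.41 to 57.1 ± 4.62 CPM (SD, n = 3), or by 0.23 on the log2 scale (SE 0.08, adjusted p = 0.0471, edgeR's quasi-likelihood test).

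Other genes of the pathway were read from 6 lists by role. Of 66 genes, 57 were tested, 4 rose and 4 fell, which is 14.04% of the 57 beside 36.2% of all genes tested. Their median log2 fold change was 0.05. With the neighbours' median taken off, 4 of these 8 calls were lost but other genes were called, and the lists held 7 calls, beside 32.0% of all genes. Without ARID1A-KO replicate 4 the lists held 4 calls, beside 26.2% of all genes in that fit. With no filter on low counts, 16 of 63 genes were called beside 22.6% of all genes, so that the gap to all genes depends on the filter.

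In DNA sensing and disposal, 0 of 15 tested genes rose and 2 fell. ABCC1, an exporter that also carries cGAMP out of the cell, went from 66.3 ± 3.59 to 50.7 ± 2.67 CPM (SD, n = 3; log2 fold change -0.39, SE 0.07, adjusted p = 0.00201, edgeR's quasi-likelihood test). RNASEH2A, the catalytic subunit of RNase H2, which removes RNA from DNA, went from 55.8 ± 4.58 to 45.5 ± 1.26 CPM (log2 fold change -0.29, SE 0.07, adjusted p = 0.0114, edgeR). Its neighbours within 5 Mb had a median of -0.31, and with that taken off RNASEH2A was at 0.02. The other 2 RNase H2 subunits did not pass (log2 fold change 0.02 for RNASEH2B and 0.18 for RNASEH2C). IFI16, another nuclear and cytosolic DNA sensor, stood at -0.20 on the log2 scale (SE 0.09, adjusted p = 0.113, edgeR), and AIM2 and ZBP1 were not tested, with 11 and 4 reads over all 6 libraries.

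Of 8 genes of STING trafficking and turnover, 1 rose and 0 fell. STIM1, a calcium sensor that holds STING at the endoplasmic reticulum, went from 26.0 ± 2.60 to 33.9 ± 1.499 CPM (SD, n = 3; log2 fold change 0.38, SE 0.08, adjusted p = 0.00687, edgeR's quasi-likelihood test). With the neighbours' median taken off, STIM1 was at 0.17 and did not pass (adjusted p = 0.165, edgeR).

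**Figure D4:**
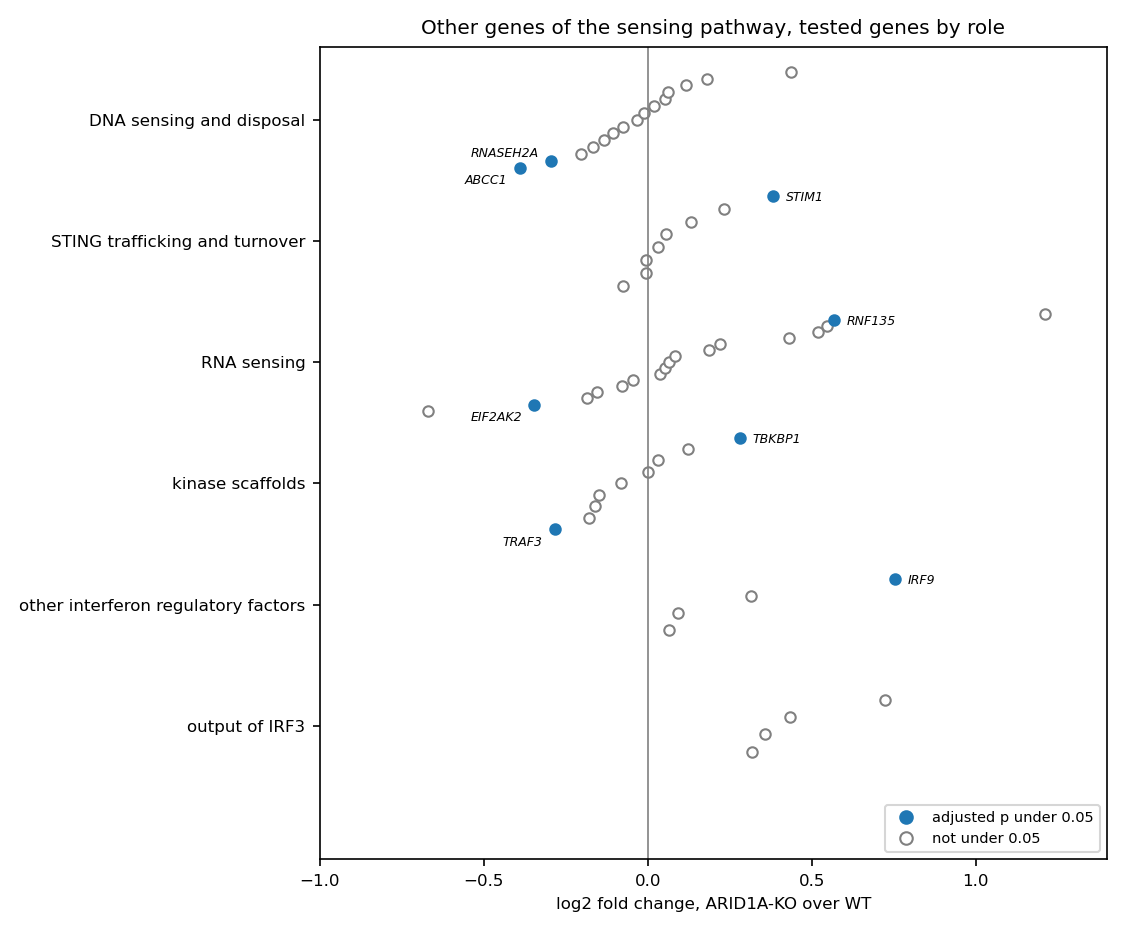
Log2 fold change in ARID1A-KO over WT (x axis) of the 57 other pathway genes tested, by role (rows, points spread vertically in the order of their values), with the 8 genes of adjusted p under 0.05 filled and named. Calls of both directions are spread over 5 roles, and the 4 tested output genes of IRF3 lie right of 0 without a call. In IFIT1, IFIT2 and IFIT3 only replicate 5 of the ARID1A-KO samples exceeded the WT mean.

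Of 17 RNA sensing genes, 1 rose and 1 fell. RNF135, a ubiquitin ligase that activates RIG-I, went from 4.85 ± 0.663 to 7.18 ± 0.760 CPM (SD, n = 3; log2 fold change 0.57, SE 0.14, adjusted p = 0.0110, edgeR's quasi-likelihood test). TRIM25, the better known ligase for RIG-I, stood at 0.06 on the log2 scale (SE 0.06, adjusted p = 0.400, edgeR). EIF2AK2, the RNA-activated kinase PKR, went from 72.8 ± 7.05 to 57.3 ± 4.15 CPM (log2 fold change -0.35, SE 0.09, adjusted p = 0.0116, edgeR). Without ARID1A-KO replicate 4, RNF135 (adjusted p = 0.0501) and EIF2AK2 (0.0517) narrowly missed the threshold in edgeR. DHX58, the third RIG-I-like helicase, had 0.374 ± 0.0671 and 0.530 ± 0.162 CPM (log2 fold change 0.52, SE 0.28, adjusted p = 0.183, edgeR).

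Among 9 kinase scaffolds, TBKBP1, which binds TBK1, rose from 30.2 ± 2.39 to 36.6 ± 3.66 CPM (SD, n = 3; log2 fold change 0.28, SE 0.09, adjusted p = 0.0397, edgeR's quasi-likelihood test). TRAF3, which links MAVS to the kinases, fell from 49.3 ± 5.61 to 40.5 ± 1.52 CPM (log2 fold change -0.28, SE 0.09, adjusted p = 0.0293, edgeR). The call of TBKBP1 was lost with the neighbours' median taken off (adjusted p = 0.126, edgeR) and in 4 of 6 fits with a sample left out (WT replicates 3 and 4, ARID1A-KO replicates 4 and 5; 0.106 to 0.117). That of TRAF3 was lost on library totals (0.0633) and with WT replicate 5, ARID1A-KO replicate 3 or ARID1A-KO replicate 4 left out (adjusted p = 0.0859 to 0.0983, edgeR). TANK did not pass (log2 fold change -0.18, SE 0.09, adjusted p = 0.163, edgeR). Of the other interferon regulatory factors, IRF9, a partner of STAT proteins in the response to interferon, rose from 1.17 ± 0.196 to 1.96 ± 0.706 CPM (log2 fold change 0.75, SE 0.26, adjusted p = 0.0472, edgeR). Its value was 0.41 (adjusted p = 0.141, edgeR) without ARID1A-KO replicate 5, and 0.46 (adjusted p = 0.204) with the neighbours' median taken off. IRF7 had no read in any library.

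The interferon genes that IRF3 switches on were near or below detection. IFNB1, the gene of interferon-β, had 1 read in WT replicate 5 and 0 in the other 5 libraries, and a count of 0 allows 0.0357 to 0.0550 CPM of the library totals at these depths (3 reads, counting error only). IFNL1 and IFNL2 had no read and IFNL3 had 2 reads in ARID1A-KO replicate 3. CXCL10 and CCL5 had 39 and 69 reads over all libraries and were not tested. Of the 4 output genes tested, 0 passed in edgeR's quasi-likelihood test, 0 had an unadjusted p under 0.05, and 0 passed in DESeq2.

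In these 4 genes the samples of 1 genotype differed more than the means of the genotypes did. IFIT1, which binds viral RNA, had 5.40, 1.59 and 4.69 CPM in WT and 2.35, 2.04 and 9.93 CPM in ARID1A-KO. ISG15, a ubiquitin-like modifier, had 5.16, 4.73 and 12.5 CPM in WT and 6.87, 8.79 and 14.3 CPM in ARID1A-KO. ARID1A-KO replicate 5 was the highest ARID1A-KO sample and WT replicate 4 the lowest WT sample in all 4 (IFIT1, IFIT2, IFIT3 and ISG15), beside 21.6% of all genes tested. The highest WT sample was replicate 5 in IFIT2, IFIT3 and ISG15 and replicate 3 in IFIT1. ARID1A-KO replicate 5 stood at 4.53 times the mean of the other ARID1A-KO samples for IFIT1, 3.79 times for IFIT2, 3.91 times for IFIT3 and 1.83 times for ISG15. Those other samples, replicates 3 and 4, lay below the WT mean in IFIT1 (3.89 CPM), IFIT2 (2.29 and 2.15 against 3.40) and IFIT3 (3.82 and 3.20 against 4.25). In ISG15 they lay on either side of it (7.47 CPM).

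The same 2 libraries took these places in 4 of the 10 sensing genes, namely TMEM173, DDX58, IFIH1 and IKBKE, beside the same 21.6%. The highest WT sample was replicate 5 in DDX58, IFIH1 and IKBKE and replicate 3 in TMEM173. ARID1A-KO replicate 5 exceeded the mean of the other ARID1A-KO samples by more than 1.5 times in 3 of the 10 (2.37 for IFIH1, 1.73 for DDX58 and 1.70 for TMEM173), beside 8.27% of all genes tested. MB21D1, TREX1, MAVS, ADAR and TBK1 kept within a coefficient of variation of 6.74% in both genotypes, and IRF3 within 10.2%. This comparison was made after the values had been seen and carries no test.

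**Figure D5:**
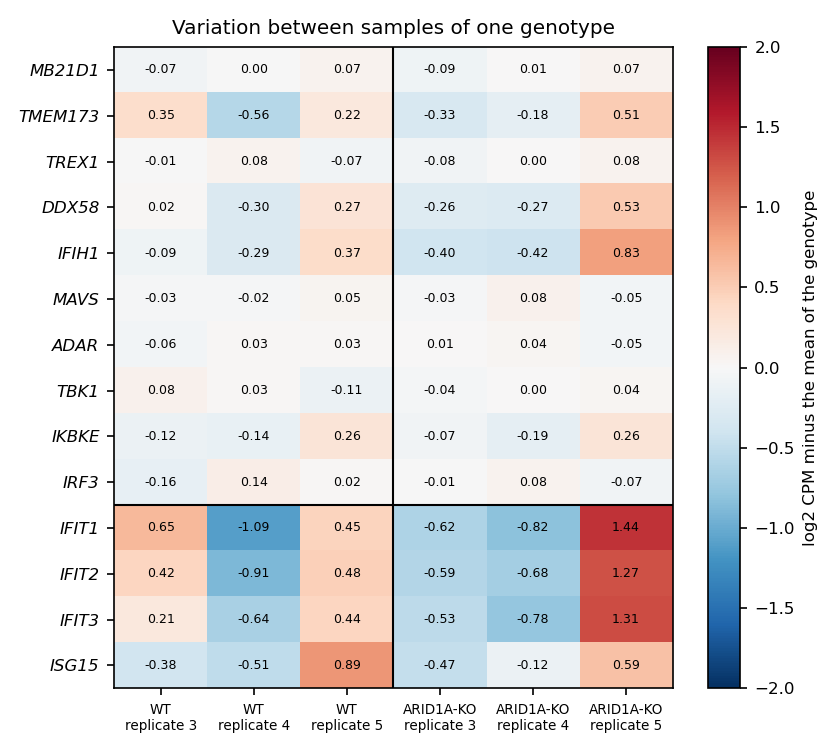
Log2 CPM of each sample (columns) minus the mean of its genotype for the 10 sensing genes and 4 output genes of IRF3 (rows), red above and blue below the mean. ARID1A-KO replicate 5 is high and WT replicate 4 low in TMEM173, DDX58, IFIH1, IKBKE and all 4 output genes, while the other members stay within 0.16 of their genotype's mean. In TMEM173, DDX58, IFIH1, IKBKE and the output genes, WT replicate 5 also lies above the WT mean.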

How the data were processed

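RNA-seq of untreated AID-DIvA cells (3 WT, 3 ARID1A-KO) was read from 6 gene tables in GRCh37 coordinates, with groups and replicates from the sample labels. The authors made stranded total RNA libraries, aligned the reads with STAR and used featureCounts for the deposited counts, which are whole numbers by gene (unstranded, forward and reverse) and not normalized. Their deposited TPM are scaled to autosomal genes and here treated as a score, since all genes sum to 1330727 to 1382709, beside a deposited legacy TPM column scaled to all genes. Forward counts were 5.83% to 6.15% of the reverse counts, which were used.

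Counts were filtered with filterByExpr, scaled by TMM and compared with edgeR's quasi-likelihood test (edgeR 4.0.16, R 4.3.3), with Benjamini-Hochberg adjustment over 19599 genes and a threshold of 0.05. DESeq2 1.42.0 was an alternative. TPM were compared with two-sided exact permutation tests (SciPy 1.17.1). The common biological coefficient of variation was 0.111. The fit was tested on simulated data. No replicate pair agreed within sampling noise (chi-square per gene 6.94 to 29.8).

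The members and lists were chosen with earlier results of these data known. Named were all members, ARID1A, per role up to 2 called genes that rose and 2 that fell without overlap, IFNB1, TRIM25, DHX58, IRF7, IFI16, TRAF3 and TANK, the 3 genes nearest in pattern to the member that changed most (mean log2 CPM over 1), and overlapping genes on the same strand. Some genes of the lists are not reported here and were left out of the counts. Other names were chosen after their values were seen. Alternatives were other counts, scalings, filters and tests, the replicate number as a block, each sample left out, the median change of neighbours within 5 Mb as an offset and, for TPM, 1 or 0.1 added on the log2 scale, unstranded values and, chosen after seeing the data, the legacy column. All members had a mean TPM above 1, so a filter at 1 changed nothing.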

Additional observations from a re-analysis of the deposited data

Results flagged for a closer look

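Reads on the strand opposite to a sensing gene were compared on their own nowhere above, though the unstranded counts of an alternative take in both strands. For MB21D1 they averaged 4.75 ± 0.738 CPM of the library totals in ARID1A-KO and 3.07 ± 0.436 in WT (SD, n = 3 each). DDX43 overlaps MB21D1 on that strand and rose by 0.49 on the log2 scale. Reads in the shared stretch can count for DDX43 as well, so this value is not separate from the rise of DDX43 given above. For TREX1 they averaged 0.516 ± 0.0422 CPM in ARID1A-KO and 0.332 ± 0.0274 in WT, and for ADAR 0.285 ± 0.0188 in ARID1A-KO and 0.101 ± 0.0566 in WT. These genes were picked out because all ARID1A-KO samples lay above all WT samples, with at least 10 such reads in each ARID1A-KO sample. The share of all genes that do so on this strand was not computed, and no test was made. ADAR had only 4 to 23 such reads in a library, beside 18932 to 28468 reverse-stranded counts. IKBKE went the other way, with 4, 2 and 4 such reads in WT replicates 3, 4 and 5 and 0 in every ARID1A-KO sample, too few for the rule.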

How the results depend on the processing

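MB21D1 and IRF3 kept their direction and call under all 15 alternatives, at log2 fold changes of 0.53 to 0.95 and 0.33 to 0.59, with adjusted p up to 0.00765 and 0.0145 in edgeR. Leaving out 1 sample moved TMEM173 between -1.33 and -0.85 and TREX1 between -0.46 and -0.38, with calls lost as given above. Over all 15 alternatives TREX1 ranged from -0.48 to -0.34, with the smallest fall on unstranded counts (adjusted p = 0.0435, edgeR). DDX58 ranged from -0.30 to 0.16 and IFIH1 from -0.15 to 0.61 over the samples left out, DDX58 turning negative without WT replicate 4 or ARID1A-KO replicate 5 and IFIH1 without ARID1A-KO replicate 5. As log2 ratios of TPM, DDX58 ranged from -0.30 to 0.19 and IFIH1 from -0.16 to 0.64, turning negative without the same samples. DDX58 was at -0.035 with the neighbour offset, where IFIH1 was at 0.72, MAVS was called (-0.25) and RNASEH2A turned to 0.018. TBK1 was called on library totals alone (0.23), and IKBKE by DESeq2 (-0.39), with no filter (-0.39) and without ARID1A-KO replicate 5, with a range of -0.52 to -0.24 over the samples left out. Of the 10 sensing genes 4 were called, 2 at an adjusted p under 0.01 and 2 to 5 with a sample left out (2 without ARID1A-KO replicate 3 or 4), where 26.2% to 35.3% of all genes were called. Of the other pathway genes 8 of 57 tested were called (36.2% of all genes), 16 of 63 with no filter (22.6% of all genes) and 2 at an adjusted p under 0.01. With a sample left out 4 to 9 of 57 to 58 tested were called, beside the same 26.2% to 35.3% of all genes. The share of all genes at an adjusted p under 0.01 was not computed, so the counts at that threshold stand without it. Library totals alone gave 8 higher and 3 lower in place of 4 and 4, and over all genes 4175 higher and 3081 lower in place of 3483 and 3616. Over all genes the replicate numbers did not pair the samples (correlations of deviations -0.18, 0.27 and 0.18 for numbers 3, 4 and 5). Not every sample correlated best with its own number. In DDX58, IFIH1, IKBKE, IFIT2, IFIT3 and ISG15, however, replicate 5 was the highest sample of both genotypes. With the replicate number as a block, 5 of 10 members were called (IKBKE added, -0.39, adjusted p = 0.0108, edgeR). DDX58 was at -0.013, with an SE of 0.11 beside 0.22 in the main fit. Of the other pathway genes 13 of 57 tested were called, 8 higher and 5 lower. These counts stood beside 38.1% of all genes called in the same fit. The cause of these changes was not tested. AIM2, ZBP1, IRF7 and 6 of the 10 output genes of IRF3 had too few reads to be tested.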

Other observations

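The ratio of MB21D1 to TMEM173, sensor to adaptor of the DNA arm, was taken from the TPM of each sample after their values had been seen. It was 0.874, 1.73 and 1.06 in WT replicates 3, 4 and 5 and 4.18, 4.03 and 2.61 in ARID1A-KO replicates 3, 4 and 5. The ratio restates the changes of these 2 genes given above and is no separate result.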
